A study of Mus musculus with 12 samples.

Results

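The aminoacyl-tRNA synthetases were taken as the rows of the deposited count table that carried 36 listed gene symbols, and all 36 were found among the table's 23893 genes. Of these, 20 encode cytosolic enzymes and 16 encode mitochondrial enzymes, whose symbols end in 2. Gars and Kars, which supply the glycine and lysine enzymes of both compartments, were counted with the cytosolic genes. The libraries came from mouse cortical neuron cultures with the strain label C57BL6, prepared from embryos of E13.5-15.5. Per the labels the females were wild-type C57BL6/J, whereas the study's methods give Top1 fl/fl cultures, in which loxP sites flank an exon of Top1, the gene of topoisomerase 1. At 3 days in vitro all cultures received a lentivirus whose CaMKIIα promoter restricts expression to neurons. The virus carried tdTomato in the libraries labelled wild-type (WT) and tdTomato-P2A-CRE in those labelled Top1cKO (Top1 cKO). At 15 days in vitro the cultures received vehicle (Veh, 0.003% DMSO) or 300 nM topotecan (Topot) in 0.003% DMSO, and RNA was collected 3 days later. Topotecan traps topoisomerase 1 on DNA, while the deletion removes the enzyme. Each combination of genotype and drug had 3 libraries, which makes 4 groups, named WT-Veh and WT-Topot for cells with Top1, and Top1 cKO-Veh and Top1 cKO-Topot for the CRE cultures. About 85 to 90% of cells were transduced per the labels. Wording such as without Top1 therefore stands for the CRE cultures as a whole, in which some Top1 RNA remained.

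Each aminoacyl-tRNA synthetase joins an amino acid to its tRNAs, the step that fixes which amino acid a codon stands for. The cytosolic enzymes serve nuclear-encoded mRNAs, and several of them sit in a multi-tRNA synthetase complex. The mitochondrial enzymes are also nuclear-encoded but charge the tRNAs of the mitochondrial genome. Many cytosolic synthetase genes belong to the amino acid response, in which the transcription factor ATF4 raises genes of amino acid uptake, synthesis and tRNA charging. Inherited variants in synthetases of either kind cause neurological disease, including peripheral neuropathies for Gars, Yars and Aars.

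The 12 libraries held 1730164 to 4583777 counts over genes. Top1 was at 117 to 163 CPM (a gene's counts scaled to library size) in the 6 tdTomato libraries and at 27.1 to 44 CPM in the 6 CRE libraries, and the source of what remained was not tested. The summed level of 10 neuronal markers was 6533 to 8531 CPM in every library, but with topotecan 2 of them moved in opposite directions in cells with Top1. Rbfox3 had a mean of 157 CPM in WT-Veh and 80.2 CPM in WT-Topot (edgeR adjusted p = 0.00209), and Tbr1 had means of 59.2 and 128 CPM (edgeR adjusted p = 0.000825). The sum of 5 interneuron markers was 758 to 1690 CPM in WT-Veh and 492 to 902 CPM in WT-Topot, with 0 of 5 called, and without Top1 it was 1140 to 1314 CPM for vehicle and 853 to 1223 CPM for topotecan. The summed level of 8 astrocyte markers with Top1 present was 2370 to 4826 CPM for WT-Veh and 1087 to 1836 CPM for WT-Topot. With the deletion it was 2685 to 6145 CPM for vehicle and 1686 to 3110 CPM for topotecan, with no astrocyte marker at 0. Of the astrocyte markers, 3 of 8 were lower in WT-Topot than in WT-Veh. Summed markers of microglia did not exceed 20.2 CPM. In these bulk cultures, fewer cells of a type and less RNA per cell cannot be told apart. The study's legends call the replicates cultures, and the labels only number them. Whether they came from separate litters is not given in the sources used here, so the p-values speak only for these libraries. In the tests below, each gene's own spread was combined with an estimate shared across genes.

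All 36 genes averaged 1 CPM or more over the 12 libraries, as did 13720 genes in the table, called the expressed genes here. They serve as the background of each count, and the level was not used as a filter in any test. The cytosolic genes were the more abundant class. In WT-Veh the median level per length was 17.8 RPKM (CPM divided by the exon length in kilobases) over the 20 cytosolic genes, with a range of 7.14 to 152 RPKM. Over the 16 mitochondrial genes it was 3.5 RPKM, with a range of 0.49 to 6.73 RPKM. The lowest cytosolic gene, Qars (glutamine), therefore stood above the highest mitochondrial gene, Mars2 (methionine). Nars, which charges asparagine, headed the cytosolic class, and Ears2 (glutamate) was lowest of all. In CPM, Mars2 measured 16.1, 21.9 and 20.2 in the 3 WT-Veh libraries and Ears2 measured 2.34, 3.51 and 1.73. The smallest count of any cytosolic gene in a library was 16, while a mitochondrial gene reached 1 count, so the fitted changes of the mitochondrial class carried wider errors. In the topotecan comparison with Top1 present, standard errors were 0.174 to 0.305 log2 units for cytosolic genes and 0.223 to 0.731 for mitochondrial genes.

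The summed level of the cytosolic genes was lower in all 9 libraries with topotecan, deletion or both than in any WT-Veh library, whereas the sums of the mitochondrial genes overlapped in all 4 groups. The cytosolic sum was 2305, 2346 and 1819 CPM in WT-Veh. It was 1484, 1530 and 1329 CPM in WT-Topot, 67.1% of the WT-Veh mean. In Top1 cKO-Veh it was 1299, 1268 and 1288 CPM, or 59.6% of that mean. In Top1 cKO-Topot it was 1364, 1203 and 1322 CPM, or 60.1%. The 2 groups without Top1 differed by less than the spread between replicates, with 1285 CPM ± 15.7 in vehicle and 1296 CPM ± 83.8 in topotecan (SD, n = 3). The mitochondrial sums with Top1 were 211 CPM ± 28.5 for vehicle and 203 CPM ± 3.92 for topotecan, and without it 205 CPM ± 24 for vehicle and 194 CPM ± 37.6 for topotecan (SD, n = 3). They stood at 96.5%, 97.2% and 92% of the WT-Veh mean in the 3 treated or deleted groups. No test was made of these sums, since the members were chosen with results of these data known.

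**Figure D1:**
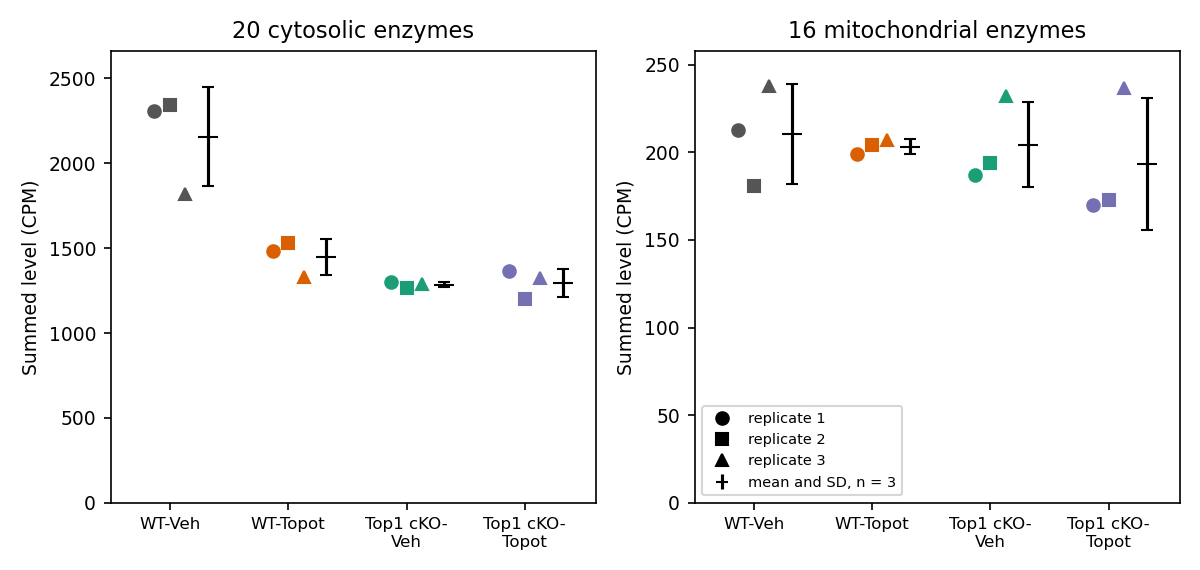
Summed level in CPM (y axis, from 0) of the 20 cytosolic genes and the 16 mitochondrial genes in each library of the 4 groups (x axis). Each symbol is a library and the bars give the mean and SD of 3 libraries. The cytosolic sums of WT-Veh, 1819 to 2346 CPM, lie above all other libraries, while the mitochondrial sums overlap between groups.

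Topotecan in cells with Top1 was compared by WT-Topot against WT-Veh. The 6 libraries were fitted over all genes with edgeR's quasi-likelihood test, and genes were called at a false discovery rate (FDR) of 0.01. The test called 4 of 20 cytosolic genes lower (Cars, Gars, Mars and Yars) and 0 higher, and it called 0 of 16 mitochondrial genes in either direction. Of the expressed genes, 3.56% were called lower and 1.19% higher. At an unadjusted p under 0.05, 11 cytosolic genes and 1 mitochondrial gene were lower, against 11.7% of the expressed genes. At that p 1 cytosolic gene, Qars, was higher, against 9.65%. DESeq2 called 7 genes lower and 0 higher, but its share of expressed genes was not computed. The median fitted log2 fold change was −0.58 over the cytosolic genes and 0.14 over the mitochondrial genes, against 0.03 over the expressed genes. The difference of class medians within a library, given above, overlapped between WT-Topot and WT-Veh.

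Cars, which charges cysteine, fell the most of the 4. It measured 39.8, 51.3 and 53 CPM in WT-Veh and 24.5, 21.2 and 16.3 CPM in WT-Topot, a log2 fold change of −1.20 (SE 0.244, adjusted p = 0.00449 by edgeR's quasi-likelihood test). Every topotecan library was below every vehicle library. Mars (methionine) measured 147, 88.5 and 136 CPM against 68, 57.2 and 59.1 CPM, a log2 fold change of −1.0 (SE 0.21, edgeR adjusted p = 0.00571). Yars (tyrosine) measured 203, 203 and 155 CPM against 107, 110 and 80.5 CPM, a log2 fold change of −0.91 (SE 0.193, edgeR adjusted p = 0.00623). Gars (glycine) measured 179, 211 and 181 CPM against 103, 108 and 108 CPM, a log2 fold change of −0.84 (SE 0.178, edgeR adjusted p = 0.00623). In all of these genes the groups did not overlap. In the mm9 annotation Cars lies at chr7:150743135-150785995, Mars at chr10:126733277-126748842, Yars at chr4:128867004-128896851 and Gars at chr6:54987995-55029498, and the counts cover their exons. The count of 4 moved with single libraries. Of the WT-Veh libraries, it was 2 with replicate 1 left out, 1 with replicate 2 left out and 7 with replicate 3 left out, and of the WT-Topot libraries it was 1 with replicate 2 left out and 0 with replicate 3 left out.

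Libraries with the same replicate number deviated together in every pair of groups, and a blocked fit, with a term for the replicate number, called 12 synthetase genes lower and 0 higher, against 8.71% and 5.62% of the expressed genes. To the 4 genes above it added Aars, Eprs, Iars, Lars, Nars, Sars and Vars of the cytosolic class and Fars2 of the mitochondrial class. This fit leaves 2 residual degrees of freedom, and its spread comes almost wholly from the estimate shared across genes. Aars, which charges alanine, measured 250, 301 and 199 CPM in WT-Veh and 154, 151 and 118 CPM in WT-Topot, with an adjusted p of 1.62e-07 with the block and 0.0143 without it. Sars (serine) measured 193, 198 and 185 CPM against 125, 122 and 135 CPM. Nars measured 410, 457 and 335 CPM against 279, 287 and 221 CPM. These 3 genes also had no overlap between the groups. Lars, which charges leucine and also takes part in leucine sensing, measured 76.4, 71.4 and 43.2 CPM against 35.9, 32.1 and 28.3 CPM. Iars (isoleucine) measured 40.1, 43 and 34.6 CPM against 21.4, 27.5 and 21.8 CPM. Eprs, the fused glutamate and proline enzyme, measured 134, 156 and 82.9 CPM against 81.4, 103 and 66.8 CPM and was the only cytosolic gene of the blocked calls whose groups overlapped. Vars (valine) measured 88.4, 41.2 and 37.4 CPM against 25.5, 33.8 and 21 CPM. WT-Veh replicate 1 held a level of Vars far above the other vehicle libraries, and without it the log2 fold change of Vars went from −1.06 to −0.55.

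The other cytosolic genes were not called by either fit. In the topotecan comparison with Top1 present, Tars (threonine) stood at −0.41, Rars (arginine) at −0.29, Farsa at −0.21, Wars (tryptophan) at −0.16, Hars (histidine) at −0.14 and Farsb at −0.05 on the log2 scale. Farsa and Farsb encode the α and β subunits of the phenylalanine enzyme. Dars (aspartate) stood at 0.06, Kars at 0.16 and Qars at 0.46. Qars was the only cytosolic gene whose topotecan libraries, at 60.7, 64.7 and 57.8 CPM, all lay above the vehicle libraries, at 55.3, 33.7 and 43.8 CPM, as did those of 12.9% of the expressed genes. Its edgeR adjusted p was 0.361, and 0.0574 with the block. In all, 10 cytosolic and 4 mitochondrial genes were lower with no overlap between the groups, against 13.2% of the expressed genes. Between libraries with the same replicate number, 12 of 20 cytosolic genes were lower with topotecan in all 3 pairs, and 4 of 16 mitochondrial genes were. The share of expressed genes lower in all 3 pairs was not computed, so these counts are descriptions without a background.

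**Figure D2:**
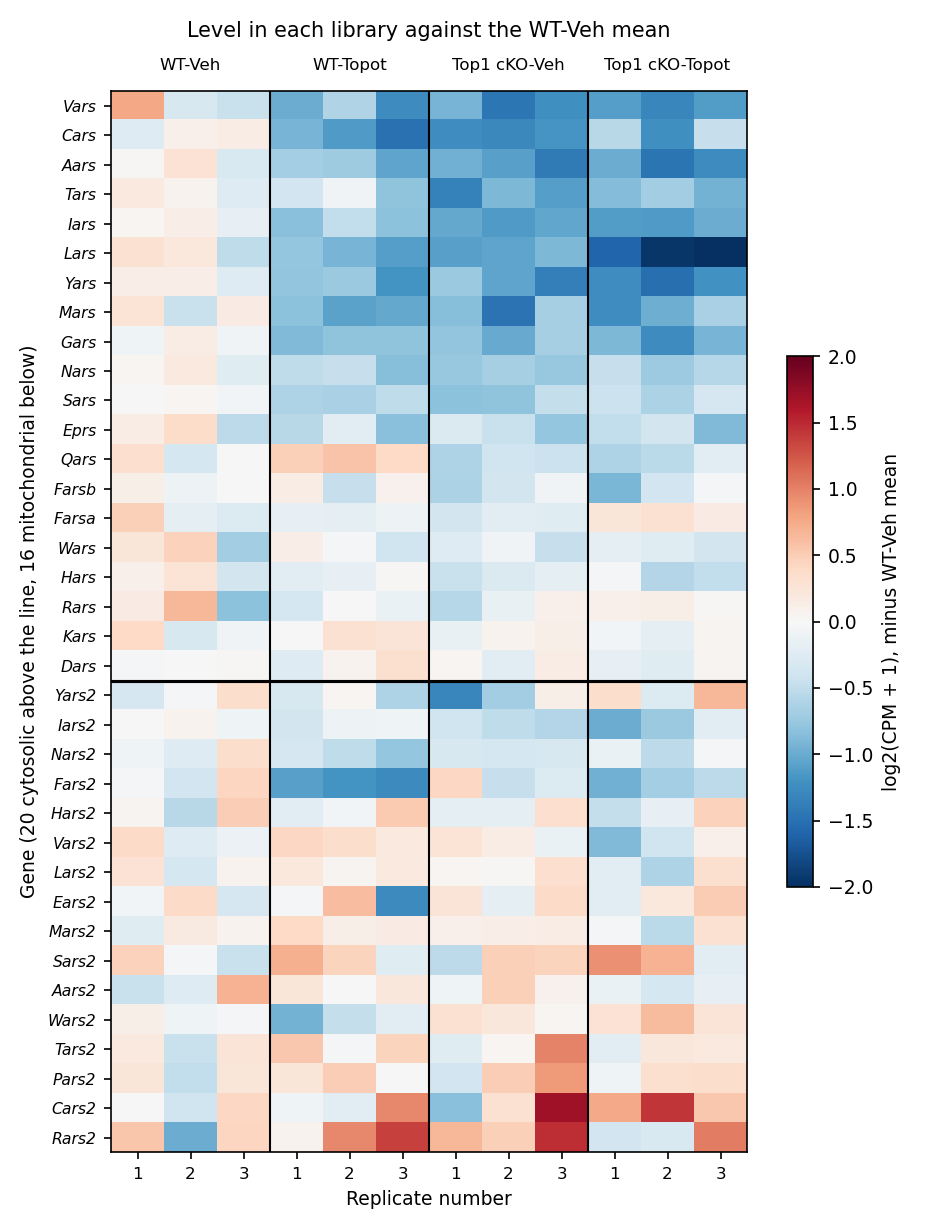
Level of each of the 36 genes (rows) in each of the 12 libraries (columns), as log2(CPM + 1) minus the mean of the 3 WT-Veh libraries, with colours that end at −2 and 2. Rows are ordered within each class by the fitted change after deletion. Blue fills the upper rows of the cytosolic class in the 9 libraries outside WT-Veh, Lars is darkest in Top1 cKO-Topot, and the mitochondrial rows show mixed colours apart from Fars2 in the topotecan libraries.

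Deletion without the drug was compared by Top1 cKO-Veh against WT-Veh, which shares the WT-Veh libraries with the comparison above. edgeR's quasi-likelihood test called 0 of the 36 genes lower and 0 higher, where it called 0.219% of the expressed genes lower and 0.0802% higher. At an unadjusted p under 0.05, 13 cytosolic genes and 1 mitochondrial gene, Iars2, were lower and 0 were higher, against 7.66% and 6.54% of the expressed genes. DESeq2 called 9 lower, edgeR's exact test called 5, and a fit of all 12 libraries called 2. The shares of expressed genes called by these other tests were not computed, so their counts have no background. The fit with the replicate block called 12 cytosolic and 0 mitochondrial genes lower and 0 higher, against 5.15% and 4.53% of the expressed genes. This blocked fit left 2 residual degrees of freedom, and its spread came wholly from the estimate shared across genes. Its p-values therefore do not measure each gene's own spread between libraries. The blocked calls were Aars, Cars, Eprs, Gars, Iars, Lars, Mars, Nars, Sars, Tars, Vars and Yars. All 20 cytosolic genes had a fitted change below 0, as did 50.3% of the expressed genes and 5 of the 16 mitochondrial genes. The median log2 fold change was −0.72 over the cytosolic genes and 0.14 over the mitochondrial genes.

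Aars had the smallest p of the class. It measured 126, 115 and 91.7 CPM in Top1 cKO-Veh against 250, 301 and 199 CPM in WT-Veh, a log2 fold change of −1.17 (SE 0.202, edgeR adjusted p = 0.0138, and 1.39e-17 with the block). Cars measured 19.6, 19 and 20.5 CPM, a log2 fold change of −1.28 (SE 0.239, edgeR adjusted p = 0.0205, and 1.69e-08 with the block). Yars measured 110, 88.4 and 71.6 CPM, a log2 fold change of −1.05 (SE 0.205, edgeR adjusted p = 0.0271, and 4.76e-13 with the block). In each of these the deleted libraries lay below all WT-Veh libraries. Tars, which the topotecan comparison did not call, measured 17.6, 24.5 and 21 CPM against 53.2, 48.7 and 38.6 CPM in WT-Veh, with no overlap and an edgeR adjusted p of 0.0439, and 4.18e-07 with the block. In Top1 cKO-Veh, Vars measured 26.6, 18.3 and 21.5 CPM and Iars measured 18.8, 17.2 and 18.5 CPM. Lars measured 28.5, 29.1 and 32.6 CPM and Mars measured 66.5, 42.6 and 75.7 CPM. Gars measured 109, 94.3 and 119 CPM, Nars 235, 251 and 235 CPM, Sars 108, 109 and 137 CPM and Eprs 97.8, 87.7 and 70.1 CPM. Of the 12 genes, only Eprs overlapped between the groups.

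Over all members, 12 cytosolic genes and 2 mitochondrial genes were lower after deletion with no overlap, against 10.3% of the expressed genes. The cytosolic genes without overlap were the blocked calls with Qars in place of Eprs. The 8 cytosolic genes not called by either fit ranged from −0.01 for Dars to −0.52 for Qars on the log2 scale. Between same-numbered libraries, 14 of 20 cytosolic genes were lower after deletion in all 3 pairs, and 3 of 16 mitochondrial genes were. The share of expressed genes lower in all 3 pairs was not computed here either, so these counts are descriptions without a background. Without WT-Veh replicate 3, edgeR's test called 4 genes lower (Aars, Lars, Vars and Yars), and without Top1 cKO-Veh replicate 1 it called 2 (Aars and Yars). It called 0 without each of the other libraries.

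**Figure D3:**
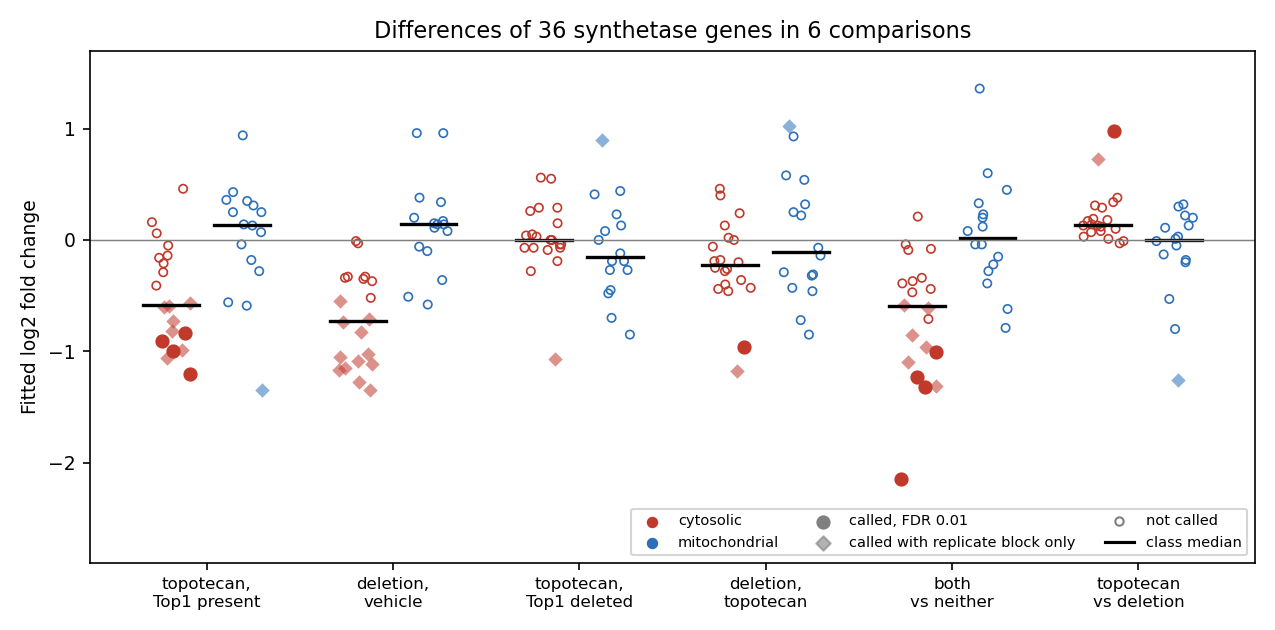
Fitted log2 fold change (y axis) of the 36 genes in the 6 comparisons of pairs of groups (x axis), by class. Filled circles were called at an FDR of 0.01, diamonds only with the replicate block, open circles by neither, and the horizontal bars are class medians. Against WT-Veh the cytosolic medians are −0.58 with topotecan, −0.72 after deletion and −0.59 with both, while the mitochondrial medians are 0.14, 0.14 and 0.02.

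The cytosolic genes did not move evenly. A list of 12 generally described as ATF4 targets (Aars, Cars, Eprs, Gars, Iars, Lars, Mars, Nars, Sars, Tars, Wars and Yars) had a median log2 fold change of −0.77 with topotecan and −1.03 after deletion. The other 8 had medians of −0.10 and −0.34. With topotecan the test called 4 of the 12 and 0 of the 8 lower, against 3.56% of the expressed genes, and the blocked fit called 10 and 1, against 8.71%. After deletion the test called 0 in each of these lists, against 0.219%, and the blocked fit, with 5.15% of the expressed genes called lower, called 11 of the 12, all but Wars, and 1 of the 8, which was Vars. The genes of the multi-tRNA synthetase complex (Dars, Eprs, Iars, Kars, Lars, Mars, Qars and Rars) were split, with a median of −0.43 with topotecan and −0.54 after deletion, against −0.60 and −0.78 over the 12 cytosolic genes outside it. The blocked fit called 4 of these 8 after deletion (Eprs, Iars, Lars and Mars), and 8 of the 12 outside. By catalytic fold, the 10 genes counted as class I had medians of −0.82 and −1.03 and the 10 counted as class II had medians of −0.31 and −0.54. Eprs, which fuses the glutamate and proline enzymes, was counted with class I only. These lists overlap and were drawn up with earlier results known, so their medians are descriptions.

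Promoter windows are shown for the cytosolic genes whose window held the core of the C/EBP-ATF response element, the site through which ATF4 acts on amino acid response genes. RefSeq windows (GRCm38.p6) from 250 bases before to 50 bases after the start site were found for 27 of the 36 genes, 13 cytosolic and 14 mitochondrial. The core was searched as TGATGNAA on both strands. It was present in 5 of 13 cytosolic windows (38.5%), in 0 of 14 mitochondrial windows and in 4.51% of the 27025 genes with a window. The 5 were Aars, Gars, Iars, Tars and Yars, all called lower after deletion by the blocked fit. That fit called 5.15% of the expressed genes lower, and the test without the block called 0 of the 36 genes. Among the 8 cytosolic genes with a window but no match (Dars, Eprs, Farsa, Farsb, Kars, Mars, Qars and Sars), 3 were called by the blocked fit: Eprs, Mars and Sars. Its calls Cars, Lars, Nars and Vars had no window. A link between match and change was not tested. A match is a description of these letters only. Capitals mark the match in the sequences that follow, which are written 5′ to 3′ on the strand of the gene: Aars upstream at chr8:111033670-111033797, Aars after its start at chr8:111033840-111033869, Gars at chr6:55037911-55038000, Iars at chr13:49682126-49682155, Tars at chr15:11399659-11399733 (minus strand) and Yars at chr4:129189895-129189924.
Aars upstream: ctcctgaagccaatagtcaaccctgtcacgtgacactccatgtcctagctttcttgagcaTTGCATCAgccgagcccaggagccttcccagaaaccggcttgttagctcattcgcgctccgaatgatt
Aars after the start: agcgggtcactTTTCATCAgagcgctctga
Gars: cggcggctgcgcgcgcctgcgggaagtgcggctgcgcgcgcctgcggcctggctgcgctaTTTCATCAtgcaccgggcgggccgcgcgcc
Iars: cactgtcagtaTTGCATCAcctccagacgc
Tars: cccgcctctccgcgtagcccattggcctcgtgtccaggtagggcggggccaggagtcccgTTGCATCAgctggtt
Yars: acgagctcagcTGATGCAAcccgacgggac
In Aars the 2 matches lay 112 to 105 bases before the start site and at bases 9 to 16 after it. In Gars and Tars the match ended 23 and 8 bases before the start. In Iars and Yars it lay at bases 7 to 14 and 3 to 10 after the start. The match was on the strand of the gene in Yars and on the opposite strand in the others.

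Topotecan in the CRE cultures was compared by Top1 cKO-Topot against Top1 cKO-Veh. Top1 remained at 27.1 to 44 CPM in Top1 cKO-Veh and 28.4 to 37.5 CPM in Top1 cKO-Topot, and cells that kept Top1 were not separated from the others. edgeR's quasi-likelihood test called 0 of the 36 genes lower and 0 higher, where it called 0.0146% of the expressed genes lower and 0% higher. DESeq2 and edgeR's exact test also called 0. At an unadjusted p under 0.05, 1 cytosolic gene was lower, and 1 cytosolic gene and 1 mitochondrial gene were higher, against 4.31% and 2.54% of the expressed genes. The medians were 0.00 over the cytosolic and −0.15 over the mitochondrial genes, and the sign of their difference, 0.15, turned to −0.09 without Top1 cKO-Veh replicate 3. The fit with the replicate block called Lars lower and Yars2, the mitochondrial tyrosine enzyme, higher, against 3.02% of the expressed genes called lower and 1.49% called higher.

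Lars had its lowest levels here. It measured 28.5, 29.1 and 32.6 CPM in Top1 cKO-Veh and 19.9, 15.3 and 6.99 CPM in Top1 cKO-Topot, where every library lay below every library of the other groups. The log2 fold change was −1.07 (SE 0.318, edgeR adjusted p = 0.508, and 6.43e-05 with the block). Yars2 measured 6.26, 10.1 and 18.5 CPM in Top1 cKO-Veh and 21.9, 13.9 and 27.5 CPM in Top1 cKO-Topot, so the groups overlapped, with a log2 fold change of 0.90 (SE 0.376, edgeR adjusted p = 1, and 0.00877 with the block).

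The difference between the 2 topotecan effects was tested as the interaction of genotype and drug over all 12 libraries. edgeR's quasi-likelihood test called 0 members in either direction, where it called 0.0656% of the expressed genes lower and 0.692% higher, higher meaning a less negative or more positive effect of topotecan without Top1. At an unadjusted p under 0.05, 10 cytosolic genes and 1 mitochondrial gene were higher, against 7.47% of the expressed genes, and 0 members were lower, against 5.95%. DESeq2 called 2 higher, but its share of expressed genes was not computed. The blocked fit called 5 cytosolic genes higher (Aars, Cars, Mars, Nars and Sars) and 0 mitochondrial genes, and 0 lower, against 4.24% and 2.66% of the expressed genes. The median interaction was 0.63 over the cytosolic genes and −0.04 over the mitochondrial genes. Cars had the most positive interaction of the called genes, 1.75 log2 units (SE 0.351, edgeR adjusted p = 0.0123, and 5.3e-05 with the block), with topotecan effects of −1.20 with Top1 and 0.56 without it. In Top1 cKO-Topot, Cars measured 32.3, 19.9 and 34.5 CPM, against 19.6, 19 and 20.5 CPM in Top1 cKO-Veh. The interaction of Cars was called when WT-Veh replicate 1 was left out (adjusted p = 0.00867 by edgeR) or when Top1 cKO-Topot replicate 2 was (adjusted p = 0.00506 by edgeR). It was not called without any other library (edgeR adjusted p of 0.0168 to 0.0387). Lars was unlike these, with topotecan effects of −0.99 and −1.07 and an interaction of −0.08 (SE 0.395).

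**Figure D4:**
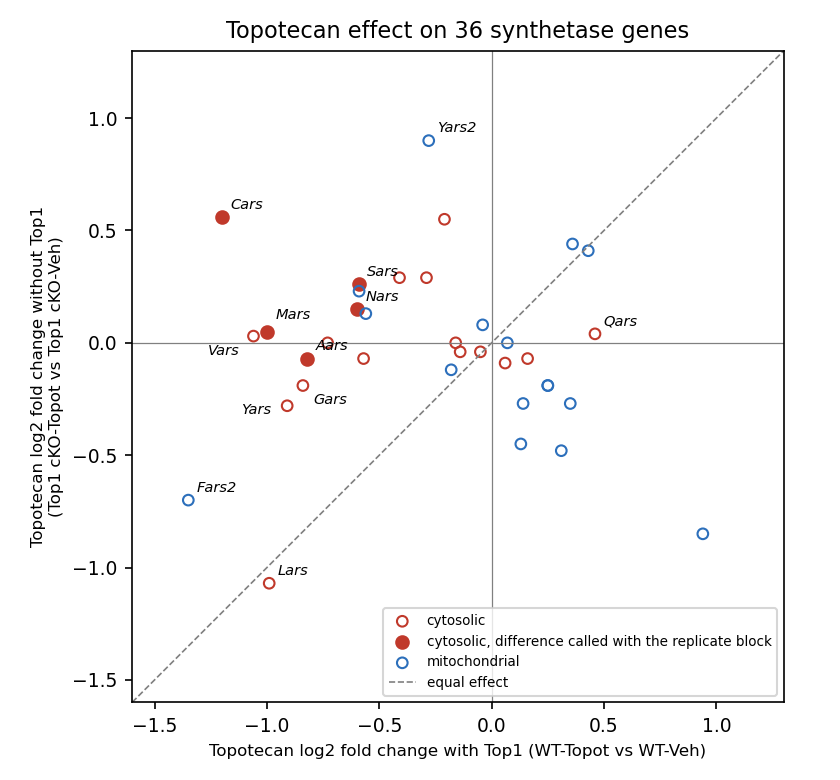
Topotecan log2 fold change of each of the 36 genes with Top1 (x axis, WT-Topot against WT-Veh) and without it (y axis, Top1 cKO-Topot against Top1 cKO-Veh), 2 comparisons that share no library. Filled points are genes whose difference was called with the replicate block, and the dashed line marks equal effects. Most cytosolic genes lie left of 0 on the x axis and near 0 on the y axis, from Cars at −1.20 and 0.56 to Lars, at −0.99 and −1.07, close to the line.

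Deletion under topotecan was compared by Top1 cKO-Topot against WT-Topot, and the 2 single interventions by WT-Topot against Top1 cKO-Veh. Qars was the only gene called in either. It measured 60.7, 64.7 and 57.8 CPM in WT-Topot, 27.8, 32.7 and 32.1 CPM in Top1 cKO-Veh and 27.9, 29.6 and 37.2 CPM in Top1 cKO-Topot. The WT-Topot libraries thus stood above all others, including the WT-Veh libraries at 33.7 to 55.3 CPM. Qars was lower in Top1 cKO-Topot than in WT-Topot by a log2 fold change of −0.96 (SE 0.211, edgeR adjusted p = 0.00625), where 1.79% of the expressed genes were called lower and 2.55% higher. Against Top1 cKO-Veh, WT-Topot was higher by 0.98 (SE 0.201, edgeR adjusted p = 0.00899), where 0.51% of the expressed genes were called higher and 2.15% lower. The former call was lost without WT-Topot replicate 2 (adjusted p = 0.018), Top1 cKO-Topot replicate 1 (0.0275) or replicate 2 (0.0335) by edgeR's test. The latter was lost in all of the leave-outs except that of Top1 cKO-Veh replicate 3, with edgeR adjusted p of 0.0208 to 0.0311.

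The cytosolic medians of the 2 comparisons were −0.22 and 0.13, and the mitochondrial medians were −0.10 and 0.00. With the replicate block, Lars was also lower and Wars2 (mitochondrial tryptophan) higher in Top1 cKO-Topot than in WT-Topot, against 7.08% and 8.02% of the expressed genes called lower and higher. Lars had a log2 fold change of −1.18 (SE 0.302, edgeR adjusted p = 0.0197). Its edgeR adjusted p was 0.00878 without WT-Topot replicate 3 and 0.0013 without Top1 cKO-Topot replicate 1. Without each of the other libraries it missed the threshold, at 0.0162 to 0.0526. Wars2 measured 13.9, 17.9 and 13.6 CPM in Top1 cKO-Topot and 5.36, 7.73 and 9.42 CPM in WT-Topot, with no overlap. In WT-Topot against Top1 cKO-Veh the blocked fit called Qars and Tars higher and Fars2 lower, against 5.06% of the expressed genes called higher and 8.35% called lower. Tars measured 35.2, 44.1 and 26.1 CPM in WT-Topot, above the 17.6, 24.5 and 21 CPM of Top1 cKO-Veh.

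With deletion and topotecan together, Top1 cKO-Topot against WT-Veh, 4 cytosolic genes fell (Aars, Gars, Lars and Yars), where 2.11% of the expressed genes were called lower, and 0 members rose, against 0.824%. DESeq2 called 7 lower and 0 higher, with no share of expressed genes computed. The replicate block gave 10 lower and 0 higher, against 7% and 5.82% of the expressed genes. Lars had the greatest difference of all members in any comparison, −2.15 log2 units (SE 0.316, edgeR adjusted p = 0.00021). Yars measured 77.7, 64.4 and 79.6 CPM in Top1 cKO-Topot, −1.32 log2 units from WT-Veh (SE 0.197, edgeR adjusted p = 0.000236). Aars measured 124, 88.7 and 103 CPM, −1.23 log2 units (SE 0.204, edgeR adjusted p = 0.000793). Gars measured 101, 79 and 99.2 CPM, −1.01 log2 units (SE 0.19, edgeR adjusted p = 0.00294). All 4 genes lay below every WT-Veh library, as did 11 cytosolic and 2 mitochondrial genes in all, against 14.4% of the expressed genes. The count of 4 became 8 when WT-Veh replicate 3 was left out and 2 when Top1 cKO-Topot replicate 2 was.

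**Figure D5:**
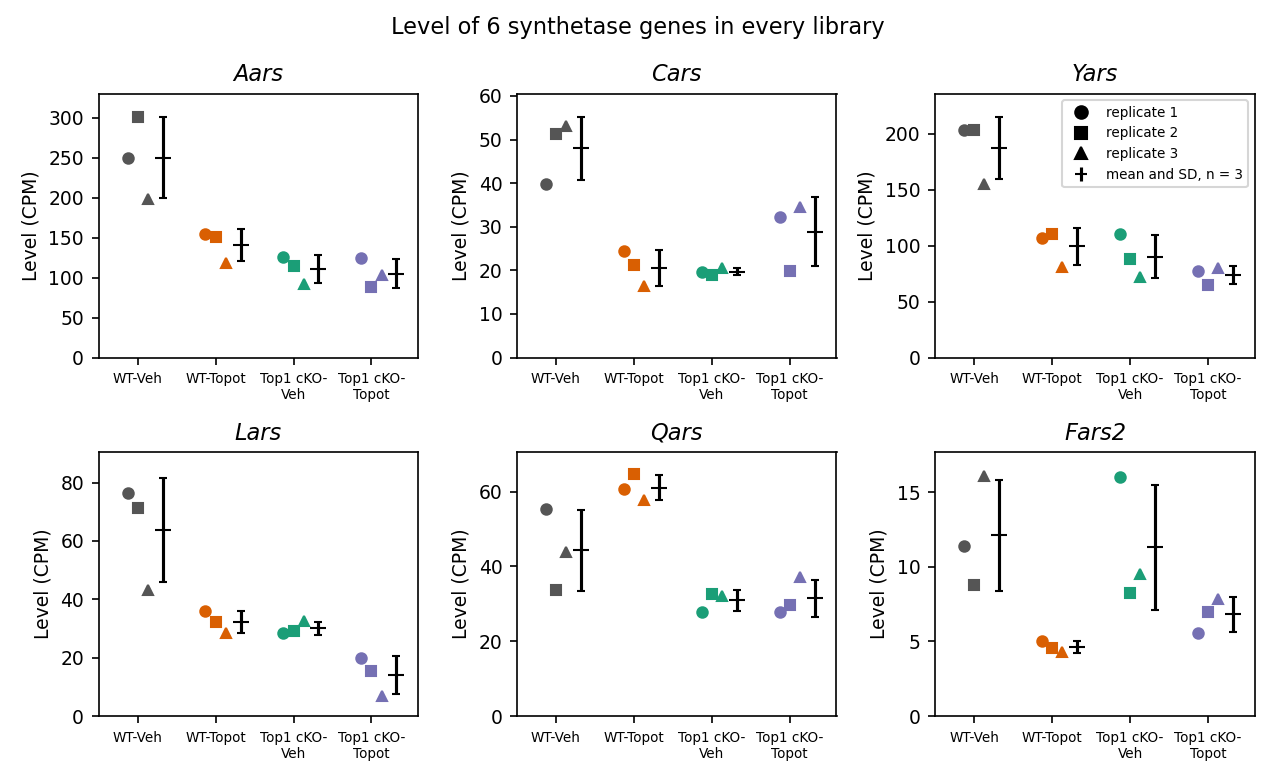
Level in CPM (y axis, from 0) of 6 genes in each library of the 4 groups (x axis). Each symbol is a library and the bars give the mean and SD of 3 libraries. Aars and Yars are high in WT-Veh and low elsewhere. Cars is highest in WT-Veh and stands at 32.3, 19.9 and 34.5 CPM in Top1 cKO-Topot. Lars is lowest in Top1 cKO-Topot at 6.99 to 19.9 CPM, Qars is highest in WT-Topot at 57.8 to 64.7 CPM, and Fars2 is lowest in WT-Topot at 4.28 to 5.03 CPM.

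Among the mitochondrial genes, Fars2 (phenylalanine) stood apart. It is also the longest synthetase gene, spanning 420 kb at chr13:36209280-36629461 (mm9, plus strand), and with Nars2 (asparagine, 113 kb) it is 1 of the 2 members over 100 kb. Fars2 measured 11.4, 8.77 and 16.1 CPM in WT-Veh, 5.03, 4.58 and 4.28 CPM in WT-Topot, 16, 8.24 and 9.52 CPM in Top1 cKO-Veh and 5.58, 6.97 and 7.87 CPM in Top1 cKO-Topot. Both topotecan groups lay below both vehicle groups in every library. The log2 fold change was −1.35 with topotecan in cells with Top1 (SE 0.384, edgeR adjusted p = 0.0496, and 0.00262 with the block). It was −0.10 after deletion (SE 0.37), and −0.70 with topotecan in the CRE cultures, which kept part of their Top1 (SE 0.376, adjusted p = 1 by edgeR). The interaction was 0.64 (SE 0.515), and edgeR's adjusted p for it was 0.982. Directly compared, WT-Topot was below Top1 cKO-Veh by −1.26 log2 units (SE 0.384, edgeR adjusted p = 0.0944, and 0.00556 with the block).

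Across the 36 genes, log10 of the gene span and the topotecan log2 fold change with Top1 present had a Pearson correlation of −0.413, and it was −0.576 over the 16 mitochondrial and −0.26 over the 20 cytosolic genes. With deletion in vehicle it was −0.0422 over the 36. These are descriptions across genes measured in the same libraries. The median span was 25.3 kb for cytosolic genes and 22.5 kb for mitochondrial genes.

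The remaining mitochondrial genes were not called in either comparison of a single intervention with WT-Veh. With topotecan they ranged from −0.59 for Wars2 and −0.56 for Nars2 to 0.94 for Rars2 (arginine), and after deletion from −0.58 for Yars2 and −0.51 for Iars2 (isoleucine) to 0.96 for Rars2 and Cars2 (cysteine) on the log2 scale. Iars2 measured 37.5, 39.4 and 35.1 CPM in WT-Veh and 28.2, 25.9 and 24.6 CPM in Top1 cKO-Veh, without overlap, but its edgeR adjusted p was 0.532, and 0.0973 with the block. Rars2 and Cars2 rested on few reads, with mean levels of 3.37 and 2.66 CPM over the 12 libraries. Their standard errors in the deletion comparison were 0.64 for Rars2 and 0.829 for Cars2. The change of most mitochondrial genes was therefore less precisely known than that of the cytosolic genes, and a miss of the threshold does not show that a level stayed the same.

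The amino acid response was examined with a list of 35 genes prompted by genes that the study had listed from these samples, so its direction is not independent evidence. With topotecan in cells with Top1, 13 of 35 fell and 0 rose, against 3.56% and 1.19% of the expressed genes, and the median log2 fold change was −1.17. After deletion, 7 of 35 fell and 0 rose, against 0.219% and 0.0802% of the expressed genes, with a median of −1.27. With the replicate block 23 were called lower with topotecan and 24 after deletion, against 8.71% and 5.15%. All 35 had fitted changes below 0 in both comparisons, against 50.3% of the expressed genes after deletion. That share was not computed for topotecan. Of the 35 genes, 34 averaged 1 CPM or more and so count among the expressed genes. Atf4 itself measured 451, 511 and 577 CPM in WT-Veh, 153, 189 and 146 CPM in WT-Topot, 273, 241 and 305 CPM in Top1 cKO-Veh and 358, 255 and 363 CPM in Top1 cKO-Topot. Its WT-Veh libraries were above all others and its WT-Topot libraries below all others. It fell by 1.65 log2 units with topotecan (SE 0.18, edgeR adjusted p = 5.79e-06), and stood at −0.91 after deletion (SE 0.173, edgeR adjusted p = 0.0235, and 1.55e-14 with the block). Its level was higher in Top1 cKO-Topot than in WT-Topot by 0.99 log2 units (SE 0.176, edgeR adjusted p = 0.000907), and its interaction was 1.91 (SE 0.245, edgeR adjusted p = 0.000407). Set beside Atf4, the cytosolic sum had its lowest mean in Top1 cKO-Veh, whose libraries, at 1268 to 1299 CPM, lay below those of WT-Topot, at 1329 to 1530 CPM.

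Asns, the asparagine synthetase that makes the substrate of Nars, measured 269, 281 and 274 CPM in WT-Veh, 120, 107 and 100 CPM in WT-Topot, 127, 107 and 108 CPM in Top1 cKO-Veh and 129, 73.1 and 102 CPM in Top1 cKO-Topot. It fell by 1.32 log2 units with topotecan and by 1.27 after deletion (edgeR adjusted p = 5.6e-05 and 0.00361). Chac1, a glutathione-degrading enzyme, fell in both comparisons, with log2 fold changes of −2.30 with topotecan and −2.56 after deletion. Shmt2 and Mthfd2, of mitochondrial folate metabolism, also fell in both, at −1.59 and −2.62 for Shmt2 and −1.87 and −2.37 for Mthfd2. Among amino acid transporters, Slc7a3 fell in both at −1.51 and −3.67, Slc7a1 at −1.62 and −1.46 and Slc6a9 at −1.27 and −1.90. Stc2, Psph and Slc7a5 fell with topotecan, with log2 fold changes of −2.83, −1.63 and −1.21, and stood at −2.02, −1.76 and −1.26 after deletion. Ddit3 stood at −1.05 and −1.36 and was called in both comparisons only with the replicate block. Slc7a11 fell with topotecan at −1.20 (edgeR adjusted p = 0.00421) but was not called after deletion by either fit. Its means were 56.3 CPM in WT-Veh and 47.4 CPM in Top1 cKO-Veh. Aldh18a1 fell with topotecan at −1.09 (edgeR adjusted p = 0.0061) and was called after deletion only with the block. After deletion Slc38a2, Psat1 and Slc3a2 stood at −1.32, −1.34 and −0.98, called only with the block. Without Top1, topotecan left 0 genes of the list called in either direction by edgeR's test, against 0.0146% and 0% of the expressed genes. At an unadjusted p under 0.05, 2 were lower and 1 higher, near the 4.31% and 2.54% of the expressed genes. The median was −0.07. The blocked fit called 0 lower and 1 higher (Slc38a2), against 3.02% and 1.49% of the expressed genes.

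A list of 14 partners of tRNA charging, which holds the complex scaffolds Aimp1, Aimp2 and Eef1e1 and the mitochondrial amidotransferase genes Qrsl1, Pet112 and Gatc, had no call by edgeR's test in either comparison with WT-Veh. At an unadjusted p under 0.05, 1 of 14 was lower with topotecan, against 11.7% of the expressed genes, and 2 were lower and 1 higher after deletion, against 7.66% and 6.54%. These counts are near the background and are no result about the list. The medians were 0.10 and −0.19. Dtd1, a deacylase that removes D-amino acids from tRNA, was called higher after deletion with the block, with a log2 fold change of 0.80 (edgeR adjusted p = 0.357, and 0.00176 with the block).

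Some members share bases with a gene on the other strand in the mm9 annotation, and whether the counting used strand is not given in the sources used here. Hars and Hars2 overlap by 198 bases, Mars and Ddit3 by 68, Farsb and Sgpp2 by 2329, Iars2 and Rab3gap2 by 2018, Ears2 and Ubfd1 by 89 and Yars and C77080 by 30. Reads in these stretches cannot be told apart. The 8 astrocyte markers had a median log2 fold change from WT-Veh of −1.45 with topotecan, 0.08 after deletion and −0.78 with both, while the cytosolic synthetase medians were −0.58, −0.72 and −0.59. Those of the 5 interneuron markers were −1.04, −0.05 and −0.15. The part of astrocyte and interneuron content in the levels of the synthetase genes was not tested.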

How the data were processed

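Levels of polyA RNA were measured by sequencing in 12 libraries of 4 groups, taken from the labels. Per the study's methods and the labels, the authors used TagDust to filter the paired-end reads and TopHat to align them to the mm9 genome (versions not given in the sources used here). After dropping rRNA reads, the authors deposited raw read counts over RefSeq exons per gene symbol, without normalization. How strand, shared reads and overlapping genes were counted is not given in the sources used here. The table's 12 columns were all mapped by name to samples.

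Counts were scaled by TMM and tested with edgeR 4.0.16 (R 4.3.3; estimateDisp, glmQLFit, glmQLFTest), each pair of groups on its 6 libraries and the interaction on 12, with no filter on low counts, Benjamini-Hochberg adjustment over 23893 genes and an FDR of 0.01. Standard errors were derived from the test statistic. CPM are TMM-scaled, and RPKM use union exon lengths of the GENCODE mm9 annotation. Alternatives were DESeq2 1.42.0, edgeR's exact test, RLE size factors, filterByExpr, a fit of all 12 libraries, the replicate number as a block, and leaving out each library. Both fits were tested on simulated data with 1 dispersion for all genes, which does not test the shared spread that the blocked fit assumes here. Same-numbered libraries of different groups had correlated deviations over 13720 genes (r 0.261 to 0.485 in 18 pairs, and −0.384 to −0.0494 in 36 pairs of different numbers), so the numbers were taken to pair the libraries. No 2 libraries agreed within sampling noise. Promoters and symbols are from RefSeq (GRCm38.p6), where Gatb is listed in the counts as Pet112. Libraries held 1730164 to 4583777 counts, so single counts limit the mitochondrial genes most.

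The members and all lists were chosen with earlier results of these data known. Genes named with every library's value were members called by the test or the blocked fit in any comparison, the 3 with the smallest p after topotecan and after deletion, the highest and lowest of each class and the longest. From the response and partner lists, genes called with topotecan or after deletion were named, at most 12 a list by p in each of these comparisons. Atf4, Ddit3 and Asns were named whatever their values. Promoter letters are shown for members called together whose window holds the element, at most 6. A result on a gene of the partner list is not reported here.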

Additional observations from a re-analysis of the deposited data

Results flagged for a closer look

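The blocked fit called a difference between genotypes in the effect of topotecan for 5 synthetase genes and for Atf4. It tested the difference itself (topotecan effect in Top1 cKO minus that in WT, log2 units, edgeR's quasi-likelihood test over 12 libraries with the replicate block). Only the members and Atf4 were looked at for this flag, and of these 6 genes only Atf4 also passed without the block. Of the 35 amino acid response genes, the test without the block called 3 higher (Atf4, Chac1 and Slc38a2), against 0.692% of the expressed genes. The blocked fit called 11 higher, against 4.24%. The difference was 1.75 for Cars (adjusted p = 0.0123, and 5.3e-05 with the block) and 1.05 for Mars (0.174 and 0.00109). It was 0.84 for Sars (0.0804 and 0.000438), 0.75 for Nars (0.144 and 0.000581) and 0.74 for Aars (0.306 and 0.00469). For Atf4 it was 1.91 (0.000407 and 2.1e-11). In all 6 genes topotecan had a negative fitted effect with Top1. Means in Top1 cKO-Veh, without the drug, were already near or below those of WT-Topot in the 5 synthetase genes. In CPM they were 111 against 141 for Aars, 19.7 against 20.6 for Cars and 61.6 against 61.5 for Mars. They were 240 against 263 for Nars and 118 against 127 for Sars. Atf4 was higher in Top1 cKO-Veh, at 273 against 163 CPM. These adjusted p-values are from edgeR.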

How the results depend on the processing

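Of 960 values of single genes recomputed under other settings, 780 kept their side of the threshold, 130 newly passed it and 50 no longer passed, and none of these 960 changed sign. Of 264 recomputed counts and class differences, 226 stayed close to the reported value and 38 moved. Close meant a count within 1.5 times, or a class difference within 0.42 log2 units. That limit is the largest SD within a group of the per-library difference of class medians. Reported differences of 0.15, −0.12 and 0.13 are smaller than that limit, so the tally says little about them. The difference for topotecan without Top1 changed sign, from 0.15 to −0.09 without Top1 cKO-Veh replicate 3, and still counted as close. DESeq2 called 7 members lower with topotecan in cells with Top1, 9 lower after deletion, 7 lower with both and 2 higher in the interaction. edgeR's exact test called 5 lower after deletion. The fit of all 12 libraries called 2 lower after deletion, 0 lower in Top1 cKO-Topot against WT-Topot and 0 higher in WT-Topot against Top1 cKO-Veh, and filterByExpr gave 0 lower in Top1 cKO-Topot against WT-Topot. With the replicate block, members called lower were 12 with topotecan, 12 after deletion, 10 with both, 1 for topotecan without Top1, 2 in Top1 cKO-Topot against WT-Topot and 1 in WT-Topot against Top1 cKO-Veh, and members called higher were 1, 1 and 2 in the last 3 of these and 5 in the interaction. The causes of these shifts were not tested. Shares of the expressed genes were computed for edgeR's quasi-likelihood test and the blocked fit only. Counts under the other settings, and with a library left out, have no such background.

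Leaving out each library in turn gave 0 to 7 members lower with topotecan (4 with all libraries), 0 to 4 after deletion (0), 2 to 8 with both (4), 0 to 2 in Top1 cKO-Topot against WT-Topot (1), and 0 to 1 higher in WT-Topot against Top1 cKO-Veh (1) and in the interaction (0). The cytosolic minus mitochondrial median ranged from −0.86 to −0.45 with topotecan, from −0.96 to −0.74 after deletion, from −0.85 to −0.33 with both, from −0.09 to 0.29 for topotecan without Top1, from −0.25 to −0.01 in Top1 cKO-Topot against WT-Topot, from 0.04 to 0.24 in WT-Topot against Top1 cKO-Veh and from 0.59 to 1.09 in the interaction. With 3 libraries a group and 1 count at the lowest, changes of the mitochondrial genes were the least precise.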
